A study of Mus musculus with 5 samples.

Results

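Integrin and laminin subunits were examined in thyroid tumor cell lines. Members were all genes whose symbol is that of an integrin chain (Itga or Itgb) or a laminin chain (Lama, Lamb or Lamc). The annotation table of the mouse genome held 37 such genes, and 36 of them were listed in at least 1 library, among 17923 genes in all. They were 17 integrin α chains, 8 integrin β chains and 11 laminin chains, and Itgad was the one gene without a value. RNA came from cell lines grown from mouse thyroid tumors carrying BRAFV600E, either without (BVE-Ctnnb1wt, 2 libraries) or with (BVE-Ctnnb1null, 3 libraries) deletion of CTNNB1, the gene of β-catenin. Both wt libraries were labelled as line BVE and passage 20, and thyroid-stimulating hormone (TSH) was given to replicate 2 but not to replicate 1. The null libraries were BVECTN_4 at passage 8 without TSH (replicate 1), BVECTN_4A at passage 11 (replicate 2) and BVECTN_5 at passage 7 (replicate 3), with no TSH given in the labels of replicates 2 and 3. According to the protocol text, wt lines had reached about 25 and null lines about 20 passages, in medium with 4 mU/mL TSH. The age of the donor mice and the driver of the deletion are not given in the sources used here. The labels and the protocol text thus differ on TSH and on passage, and which of them holds for a library is not settled here. Effects of the deletion, of the passage, of TSH and of the line a library came from cannot be told apart.

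Integrins are receptors made of an α and a β chain that span the cell membrane, hold the cell to the extracellular matrix and pass signals to kinases at focal adhesions. The pairing sets the ligand: some pairs bind collagen, some laminin, and some the RGD motif of fibronectin, vitronectin or osteopontin. Laminins are trimers of an α, a β and a γ chain that build the basement membrane, the sheet on which epithelial cells such as thyroid follicular cells rest. Laminin that holds the Lama3 and Lamb3 chains is typical of epithelia and is bound by the integrin pair Itga6 and Itgb4 in hemidesmosomes.

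Values were deposited per transcript, as estimated counts and as FPKM (scaled to transcript length and library size), from 0.01 FPKM upward. Estimated counts summed to between 29360002 and 30713079 per library. The deleted gene itself went against the labels: Ctnnb1 stood at 59.3 and 73.8 FPKM in the wt and at 125, 196 and 118 FPKM in null replicates 1, 2 and 3. All null libraries were above the wt libraries in FPKM, but the groups overlapped in TMM-normalized counts, and the fitted log2 fold change was 0.55 with a standard error of 0.44 (adjusted p = 0.517 by Benjamini-Hochberg, from the quasi-likelihood test of edgeR). A gene-wide value cannot show whether particular exons are missing, and every direction below is for the libraries as labelled. The labelled cell type, thyroid epithelial cells, was checked against its markers. Of the thyroid transcription factors, Nkx2-1 lay between 0.26 and 34.8 FPKM, Hhex between 1.08 and 20.2 FPKM and Foxe1 at or under 0.09 FPKM. Pax8 had 0.40 and 0.17 FPKM in the wt and 18.2, 12.8 and 2.56 FPKM in the null libraries, higher in all of them (log2 fold change 4.75, standard error 1.09, adjusted p = 0.180 with edgeR and 7.72e-05 with DESeq2), and its part in the integrin and laminin values was not tested. Tg, the thyroglobulin gene, was low throughout and lower in all null libraries, with 0.80 and 0.86 FPKM in the wt and 0.04, 0.51 and 0.34 FPKM in the null libraries (log2 fold change -2.13, standard error 1.00, adjusted p = 0.300, edgeR). The epithelial genes Epcam and Cdh1 were listed in the other libraries but not in null replicate 2. In bulk RNA of this kind, fewer cells of a type and less RNA per cell cannot be told apart.

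Integrin chains summed to more FPKM in all null libraries, and many integrin and laminin chains differed widely from line to line. The summed FPKM of all integrin chains was 209 and 156 in the wt and 801, 666 and 565 in null replicates 1, 2 and 3. This was 183 ± 37.5 (SD, n = 2) against 677 ± 119 (SD, n = 3), and the groups did not overlap (two-sided exact permutation test, p = 0.1, the smallest that 2 against 3 libraries allow). The β chains had no overlap either, with 89.7 and 74.3 FPKM in the wt and 281, 389 and 383 FPKM in the null libraries (exact permutation test, p = 0.1). The summed FPKM of all laminin chains was 209 and 167 in the wt and 389, 271 and 197 in the null libraries, so null replicate 3 lay between the wt libraries (exact permutation test, p = 0.3). The laminin α chains alone did not overlap, with 15.2 and 8.15 FPKM in the wt and 65.1, 36.5 and 23.4 FPKM in the null libraries (exact permutation test, p = 0.2).

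No single chain passed the edgeR test. After a filter on low counts, edgeR tested 30 of the 36 genes among 13240 genes, and 0 chains were called higher or lower at an adjusted p under 0.05, where the share of all genes called was 0.0% in each direction. At an unadjusted p under 0.05, 6 chains were higher (Itga2, Itga6, Itgav, Itgb1, Itgb3 and Itgb5), 20.0% of those tested against 12.4% of all genes. With wt replicate 1 left out 0 chains reached that level, and with wt replicate 2 left out 2 did. No chain was lower at that level, against 6.07% of all genes. DESeq2 called 3 chains higher (Itga2, Itgb3 and Itgb5), 10.3% of the 29 with an adjusted p, near the 8.48% of all genes it called, and 0 lower against 3.71%. At an unadjusted p under 0.05 DESeq2 had 6 chains higher, 20.7% against 16.5% of all genes, and 0 lower, against 8.56%. In CPM (counts scaled to the library size) after TMM normalization, 6 of the 30 tested chains were higher in all null than in both wt libraries (Itga2, Itga4, Itgav, Itgb1, Itgb3 and Itgb5), which is 20.0% against 22.6% of all genes. Itgb7 alone was lower in all of them, where 17.3% of all genes were. In FPKM, 8 chains were higher in all null libraries (the same 6 with Itga5 and Itga6), 26.7% against 35.9% of all genes, and 0 were lower, against 7.22%. With limma on log2(FPKM + 0.1), 0 of 22 chains were called, where 0.00841% of all genes were called higher and 0.0421% lower. At an unadjusted p under 0.05 limma had the 6 chains of edgeR higher, 27.3% against 19.1% of all genes, and 0 lower, against 2.79%. Shares of higher chains were above those of all genes in some of these counts and not in others. Shares of lower chains were at or below those of all genes, and these differences were not tested. No laminin chain was among the chains counted so far. A log2 fold change above 0 was fitted for 22 of the 30 chains, 16 integrin and 6 laminin chains, 73.3% against 59.3% of all genes. The counts cover tested chains; of the untested ones, Lama2 was listed in all null libraries, at 0.01 to 0.04 FPKM, and in no wt library.

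The median log2 fold change was 1.38 over the 21 integrin chains tested and 0.89 over the 9 laminin chains tested, beside 0.29 over all genes tested. The laminin median was 0.36 without null replicate 1 and -0.22 with the replicate block. Chains that passed the filter through 1 group only had to differ, so these medians are a description. The scale mattered: over the 11796 genes tested in every tool, the median log2 fold change was 0.21 with edgeR, 0.13 with DESeq2 and 0.61 on log2(FPKM + 0.1). FPKM ratios between the groups therefore hold an upward shift for the null libraries that all genes share.

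**Figure D1:**
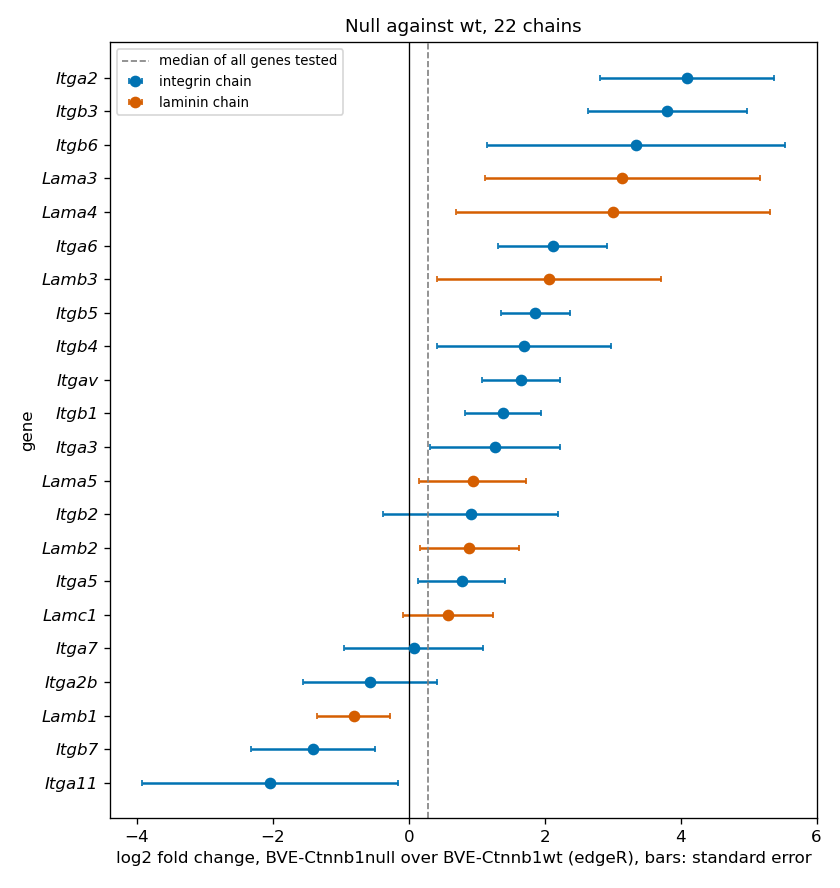
Log2 fold change of 22 of the 23 chains with a mean of at least 1 FPKM in either group, BVE-Ctnnb1null over BVE-Ctnnb1wt, from edgeR (points) with its standard error (bars); blue marks integrin and orange laminin chains, and the dashed line marks the median of all genes tested, 0.29. Itga2 is at the top with 4.09 and Itga11 at the bottom with -2.04, and the bars of the laminin chains Lama3, Lama4 and Lamb3 are among the widest.

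Itgb1, which pairs with most α chains, was the most abundant β chain in 4 libraries. Its level was 61.8 and 41.3 FPKM in the wt and 88.8, 234 and 286 FPKM in null replicates 1, 2 and 3. All null libraries were above both wt libraries, null replicate 1 by the least. The log2 fold change was 1.38 with a standard error of 0.56 (adjusted p = 0.261, edgeR).

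Among the chains that bind RGD ligands, Itgb5, whose product pairs with that of Itgav to bind vitronectin, stood at 15.1 and 23.9 FPKM in the wt and at 98.4, 144 and 81.8 FPKM in null replicates 1, 2 and 3. The groups were well apart, and the null libraries differed among themselves by 1.76-fold, the smallest such range of the 23 chains with a mean of at least 1 FPKM in either group. The mean was 19.5 ± 6.25 FPKM (SD, n = 2) in the wt and 108 ± 32.1 FPKM (SD, n = 3) in the null libraries, a 5.53-fold difference in mean FPKM (exact permutation test, p = 0.1). On the count scale the log2 fold change was 1.86 with a standard error of 0.51 (adjusted p = 0.192, edgeR). DESeq2 gave an adjusted p = 0.0195, and over all alternatives the adjusted p of Itgb5 ranged from 0.0195 to 0.841. In null replicate 1, 35.0% of the summed β chain FPKM came from Itgb5, more than the 31.6% from Itgb1.
Itgav, the αv chain, stood at 4.43 and 3.12 FPKM in the wt and 14.2, 28.5 and 10.3 FPKM in the null libraries. All null libraries were higher, with replicate 2 at the top. Its log2 fold change was 1.65 with a standard error of 0.57 (adjusted p = 0.222, edgeR), and 1.08 without null replicate 2. Itgav stayed below Itgb5 in every library, at 0.126 to 0.293 of its FPKM.
Itgb3, the other main partner of Itgav, was low in the wt libraries at 0.09 and 0.13 FPKM, and stood at 0.39, 4.84 and 2.01 FPKM in the null libraries. It was higher in all null libraries, but by 3.55-fold over the wt mean in null replicate 1 and 44.0-fold in null replicate 2. The log2 fold change was 3.80 with a standard error of 1.17 (adjusted p = 0.201, edgeR), and 2.74 without null replicate 2. DESeq2 gave an adjusted p = 0.0073, with a range of 0.0073 to 0.841 over the alternatives.
Itga5, the α chain of the main fibronectin receptor, stood at 24.3 and 20.0 FPKM in the wt and 24.3, 44.8 and 105 FPKM in null replicates 1, 2 and 3. Null replicate 1 was level with wt replicate 1, and null replicate 3 was the highest. The log2 fold change was 0.78 with a standard error of 0.64 (adjusted p = 0.527, edgeR), and 0.03 without null replicate 3.
Itgb6, an epithelial partner of Itgav that activates latent TGF-β, was not listed in wt replicate 1 and had 0.14 FPKM in wt replicate 2, beside 2.55, 0.03 and 0.82 FPKM in null replicates 1, 2 and 3. Null replicate 2 lay between the wt libraries, so the groups overlapped (log2 fold change 3.34, standard error 2.19, adjusted p = 0.435, edgeR). Its fitted value was 1.74 without null replicate 1 and 10.29 without wt replicate 2, which leaves a wt library where it was not listed, so that this value is no measure of size. Itga2b, the platelet fibrinogen receptor chain, overlapped between the groups, with 2.09 and 3.82 FPKM in the wt and 4.52, 0.41 and 4.02 FPKM in the null libraries.

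The RefSeq table held 250 bases before the transcription start for 23 of the 36 genes (26 windows, build GRCm38.p6). The windows of Itgb5, Itgav and Itgb1 are shown because these abundant chains were higher in all null libraries. Capitals mark the GC box GGGCGG on either strand.
Itgb5 (chr16:33829415-33829664, + strand): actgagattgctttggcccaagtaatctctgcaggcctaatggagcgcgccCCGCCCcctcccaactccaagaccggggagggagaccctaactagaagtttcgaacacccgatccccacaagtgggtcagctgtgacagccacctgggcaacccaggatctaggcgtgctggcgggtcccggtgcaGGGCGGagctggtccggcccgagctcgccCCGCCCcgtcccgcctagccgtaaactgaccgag
Itgav (chr2:83724147-83724396, + strand): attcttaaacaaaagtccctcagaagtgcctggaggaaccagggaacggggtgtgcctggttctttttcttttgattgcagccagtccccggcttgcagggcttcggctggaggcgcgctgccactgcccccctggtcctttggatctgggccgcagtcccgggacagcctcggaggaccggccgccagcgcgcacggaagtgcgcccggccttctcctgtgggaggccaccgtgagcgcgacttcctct
Itgb1 (chr8:128685404-128685653, + strand): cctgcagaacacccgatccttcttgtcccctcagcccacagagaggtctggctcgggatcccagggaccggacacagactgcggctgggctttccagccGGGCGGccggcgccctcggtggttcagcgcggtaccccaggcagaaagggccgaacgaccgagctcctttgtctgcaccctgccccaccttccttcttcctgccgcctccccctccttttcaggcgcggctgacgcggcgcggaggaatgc
The window of Itgb5 held 3 GC boxes, that of Itgb1 held 1 and that of Itgav held 0. GC boxes were in 9 of the 26 windows, 34.6% against 32.7% of all 32851 windows of this length. The word CTTTG followed by AA, AT, TA or TT, the core of the TCF/LEF sites through which β-catenin acts on its targets, was searched on both strands. Such words were in 2 of the 26 windows (Itga1 and Itga10), 7.69% against 14.8% of all windows. The AP-1 word TGACTCA, on either strand, was in 1 of the 26 windows (Itgax), 3.85% against 4.46% of all. None of the 3 windows shown held a TCF/LEF or AP-1 word. A match is a description of letters, and no match says only that these letters are not in these windows.

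Of the laminin-binding integrins, Itga3 was the most abundant α chain in 4 of the 5 libraries, with 75.4 and 45.3 FPKM in the wt and 438, 133 and 44.8 FPKM in null replicates 1, 2 and 3. Null replicate 1 was far above the others, and null replicate 3 was just below the lower wt library. The log2 fold change was 1.27 with a standard error of 0.96 (adjusted p = 0.493, edgeR), and it was -0.08 without null replicate 1. In null replicate 1 Itga3 made up 84.4% of the summed α chain FPKM, against 63.1% and 55.3% in the wt libraries and 24.6% in null replicate 3, where Itga5 held 57.6%.
Itga6 had 5.91 and 3.56 FPKM in the wt and 29.6, 53.3 and 8.56 FPKM in the null libraries. All null libraries were above both wt libraries in FPKM, but the groups overlapped in CPM after TMM normalization. Its log2 fold change was 2.12 with a standard error of 0.80 (adjusted p = 0.239, edgeR), and 1.43 without null replicate 2.
Its partner Itgb4, which anchors hemidesmosomes, did not follow it. Itgb4 stood at 9.19 and 5.36 FPKM in the wt and 85.5, 5.16 and 7.98 FPKM in null replicates 1, 2 and 3, so only null replicate 1 was above the wt range. The log2 fold change was 1.70 with a standard error of 1.28 (adjusted p = 0.493, edgeR) and -0.80 without null replicate 1. The FPKM of Itga6 over that of Itgb4 was 0.643 and 0.664 in the wt and 0.346, 10.3 and 1.07 in the null libraries, a value per length that was highest in null replicate 2.
Itga7, a laminin receptor best known from muscle, had 5.33 and 2.61 FPKM in the wt and 0.73, 13.4 and 4.97 FPKM in the null libraries. The groups overlapped, with null replicate 1 the lowest and null replicate 2 the highest of all (log2 fold change 0.07, standard error 1.02, adjusted p = 0.975, edgeR).

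Of the 4 α chains of collagen receptors, Itga2 differed most in the main edgeR fit. It had 0.14 and 0.12 FPKM in the wt (18 and 16 counts) and 7.28, 1.33 and 0.79 FPKM in null replicates 1, 2 and 3 (935, 168 and 100 counts). All null libraries were higher, by 56.0-fold, 10.2-fold and 6.08-fold over the wt mean. The log2 fold change was 4.09 with a standard error of 1.28 (adjusted p = 0.203, edgeR), and 2.37 without null replicate 1. DESeq2 gave an adjusted p = 0.00648, with a range of 0.00648 to 0.841 over the alternatives.
Itga11, a fibrillar collagen receptor of mesenchymal cells, had 1.42 and 2.84 FPKM in the wt, was not listed in null replicate 1 and had 0.11 and 2.37 FPKM in null replicates 2 and 3. Null replicate 3 lay between the wt libraries (log2 fold change -2.04, standard error 1.88, adjusted p = 0.574, edgeR). The fitted value was -5.94 without null replicate 3 and -6.83 with the replicate block. In the block fit null replicate 3, the only library with its number, adds nothing to the group difference, so these values are not separate checks. Itga11 differed more than Itga2 in both of these fits, where Itga2 had 4.49 and 4.04. Itga1 ranged from 0.02 FPKM in null replicate 1 to 0.87 FPKM in null replicate 3. Itga10 stayed between 0.07 and 0.27 FPKM.

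**Figure D2:**
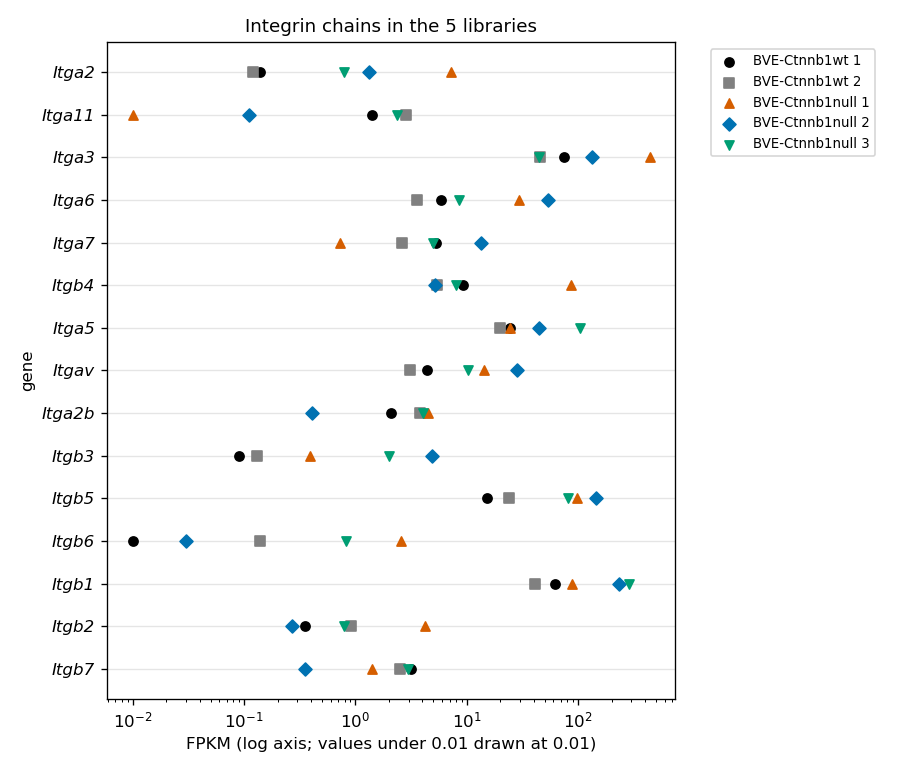
FPKM (log axis) of the 15 integrin chains with a mean of at least 1 FPKM in either group, 1 point per library; values under 0.01 are drawn at 0.01. The null points of Itgb5 lie close together at 81.8 to 144 FPKM, to the right of both wt points, while those of Itgb4 run from 5.16 to 85.5 FPKM on both sides of the wt points.

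Chains found mainly on leukocytes were low. Itgb2, their common β chain, had 0.35 and 0.92 FPKM in the wt and 4.19, 0.27 and 0.79 FPKM in null replicates 1, 2 and 3, with null replicate 1 alone above the wt range. Itgb7, the β chain of gut-homing lymphocytes, had 3.14 and 2.50 FPKM in the wt and 1.40, 0.35 and 2.99 FPKM in the null libraries. The groups of Itgb7 overlapped in FPKM but not in CPM after TMM normalization, and its log2 fold change was -1.41 with a standard error of 0.91 (adjusted p = 0.426, edgeR), and -2.25 without null replicate 3. The α partners Itgal, Itgam and Itgax did not exceed 0.02 FPKM, and Itgae did not exceed 0.26 FPKM. The leukocyte markers Ptprc, Cd3e, Cd3g, Nkg7 and Adgre1 were listed in no library.
Of the remaining low chains, Itga4 had 0.05 and 0.03 FPKM in the wt and 0.26, 0.24 and 0.11 FPKM in the null libraries, higher in all 3 (log2 fold change 1.73, standard error 0.95, adjusted p = 0.360, edgeR). Itga8 reached 1.14 FPKM and Itgb8 0.50 FPKM in null replicate 2, with neither above 0.04 FPKM in the wt. Itga9 was listed in null replicates 2 and 3 only, at 0.17 and 0.04 FPKM.

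The laminin chains differed between the null lines, as did many integrin chains. Of the 8 laminin chains with a mean of at least 1 FPKM in either group, 4, among them Lama3, Lama4 and Lamb3, differed more than 10-fold between null libraries, and of the 15 integrin chains at that level 7 did. Among all 23 chains at that level it was 11, or 47.8%, where 13.6% of the 11375 genes at that level did. Lama4, Itgb2 and Itgb6 reached that level only through 1 high null library, so for them a wide range was in part set by the rule. The difference between these shares was not tested.
Lama3 stood at 1.01 and 0.43 FPKM in the wt and 19.9, 0.02 and 6.28 FPKM in null replicates 1, 2 and 3. Null replicates 1 and 3 were above and null replicate 2 was below both wt libraries, a range of 996-fold between null libraries.
Lamb3 stood at 6.68 and 6.38 FPKM in the wt and 99.1, 0.66 and 15.1 FPKM in the null libraries, which fell in the same order as for Lama3.
Both epithelial chains were thus highest in null replicate 1 and lowest in null replicate 2.
The log2 fold changes were 3.14 (standard error 2.02) for Lama3 and 2.06 (standard error 1.65) for Lamb3, with adjusted p values of 0.426 and 0.519 (edgeR). Without null replicate 1 the value was 1.48 for Lama3, and that of Lamb3 turned to -0.42.

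Other laminin chains did not share a single order. Lamc1, the common γ chain, had 20.5 and 19.4 FPKM in the wt and 16.9, 84.6 and 36.4 FPKM in null replicates 1, 2 and 3. It was lowest in null replicate 1 and highest in null replicate 2, the opposite order to Lama3 and Lamb3 (log2 fold change 0.58, standard error 0.66, adjusted p = 0.653, edgeR; -0.25 without null replicate 2).
Lamb1, the common β chain, had 122 and 76.0 FPKM in the wt and 41.9, 138 and 74.4 FPKM in the null libraries, with wide overlap (log2 fold change -0.81, standard error 0.54, adjusted p = 0.440, edgeR; -1.40 without null replicate 2). Its FPKM was above that of Lamb3 in 4 libraries and below it in null replicate 1, where Lamb3 had 2.37 times the FPKM of Lamb1.
Lamb2, the β chain of vascular and muscle basement membranes, had 3.34 and 5.76 FPKM in the wt and 19.2, 4.57 and 14.0 FPKM in the null libraries. Lama5, the α chain of most adult epithelial basement membranes, had 14.0 and 7.43 FPKM in the wt and 45.1, 36.3 and 7.56 FPKM in the null libraries. Both overlapped between the groups, Lamb2 through null replicate 2 and Lama5 through null replicate 3, with adjusted p values of 0.527 and 0.537 (edgeR).
Lama4, the α chain of vascular and mesenchymal laminins, had 0.22 and 0.29 FPKM in the wt and 0.02, 0.09 and 9.56 FPKM in the null libraries. It was high in null replicate 3 only, and lower than the wt in the other null libraries. Its log2 fold change was 3.00 with a standard error of 2.31 (adjusted p = 0.503, edgeR), and -2.92 without null replicate 3. In null replicate 3 the laminin α chains were divided between Lama4 (40.8%), Lama5 (32.3%) and Lama3 (26.8%). Lama5 held 91.9% and 91.2% in the wt and 99.6% in null replicate 2. In null replicate 1 Lama5 held 69.3% and Lama3 30.6%.
Lama1, Lama2 and Lamc3 did not exceed 0.20 FPKM in any library.

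**Figure D3:**
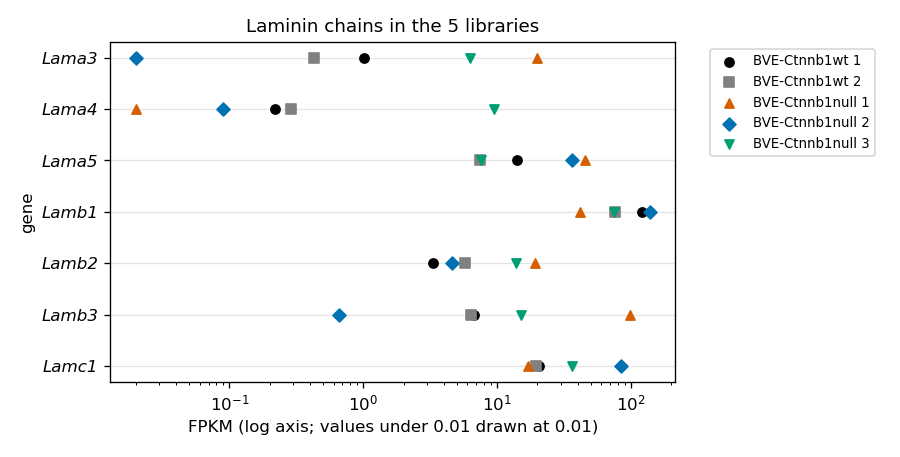
FPKM (log axis) of 7 of the 8 laminin chains with a mean of at least 1 FPKM in either group, 1 point per library; values under 0.01 are drawn at 0.01. Lama3 and Lamb3 have null replicate 1 on the right (19.9 and 99.1 FPKM) and null replicate 2 on the left (0.02 and 0.66 FPKM), and Lamc1 has the reverse order.

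**Figure D4:**
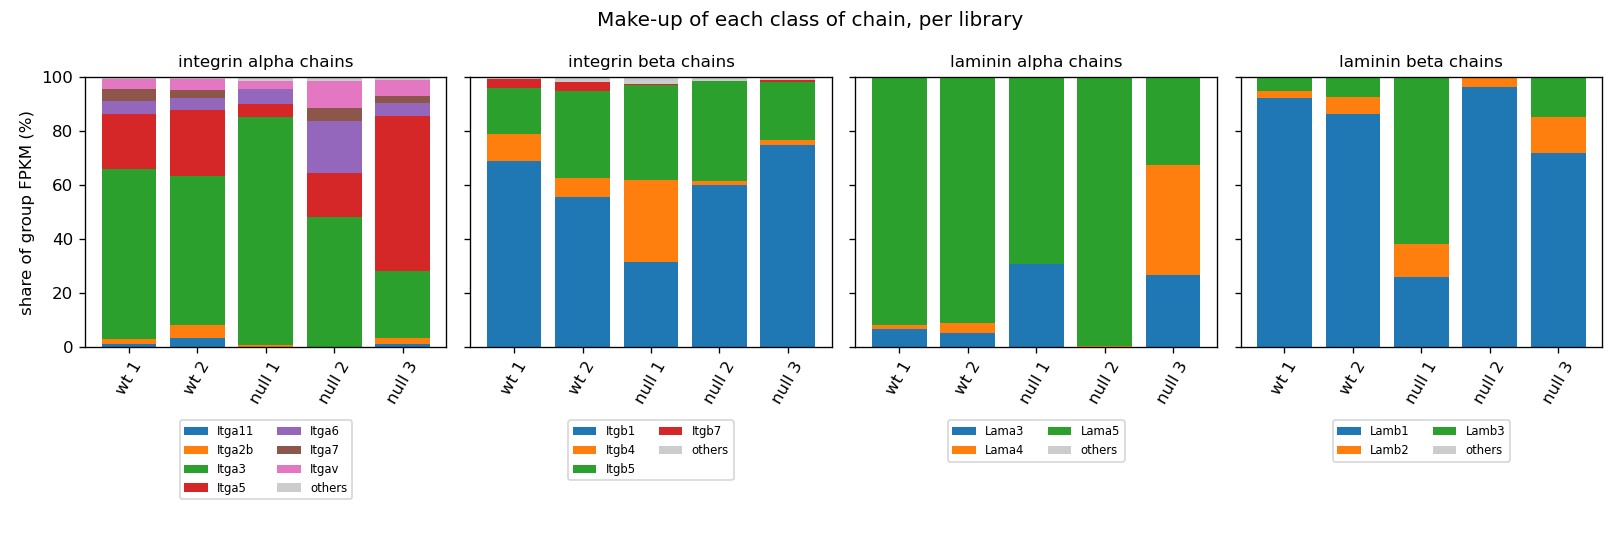
Share of each chain in the summed FPKM of its class (percent, stacked to 100), per library, for the α and β chains of integrins and laminins; chains under 3% in every library are drawn together as others. Itga3 takes 84.4% of the integrin α chains in null replicate 1 and Itga5 57.6% in null replicate 3, and Lamb3 runs from 61.9% of the laminin β chains in null replicate 1 to 0.46% in null replicate 2.

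Markers of epithelial and mesenchymal cells also differed between the libraries. The 10 epithelial markers summed to 1098 and 1774 FPKM in the wt and to 13380, 706 and 1421 FPKM in null replicates 1, 2 and 3, with Krt7 the most abundant at 5131 FPKM in null replicate 1. The sum was thus highest in null replicate 1 and lowest in null replicate 2, the libraries that were highest and lowest for Lama3 and Lamb3. Between these extremes the order was not shared, since wt replicate 2 was above null replicate 3 for the sum but below it for Lama3 and Lamb3. Single markers departed from the extremes too, since Krt7 and Krt18 were lowest in wt replicate 1 and Krt8 was lowest in null replicate 3. The 10 fibroblast markers summed to 1768 and 3661 FPKM in the wt and to 86.8, 3012 and 2815 FPKM in the null libraries, with Vim the most abundant at 1478 and 3406 FPKM in the wt and 85.1, 2864 and 1401 FPKM in the null libraries. Col3a1 was listed in all libraries but null replicate 1. Thy1, Dcn and Postn had 88.5, 84.7 and 102 FPKM in null replicate 3, the library with high Lama4, and did not exceed 0.24 FPKM elsewhere. Only Vim and Lum of the list were not highest in null replicate 3. Pdgfra, Pdgfrb and Col3a1 had 21.5, 23.4 and 189 FPKM there, against at most 3.54, 20.8 and 77.6 FPKM elsewhere. Vim in null replicate 3 was below both wt libraries, and Lum had 0.02 FPKM there against 0.14 FPKM in wt replicate 1. The part of such cells in the laminin and integrin values was not tested.
Of the 13 leukocyte markers 7 were listed, summing to 8.54 and 16.3 FPKM in the wt and 60.6, 1.81 and 40.6 FPKM in the null libraries, mostly from Cd68, while Tyrobp and Fcer1g were listed in no null library. Null replicate 1, with the highest Itgb2, was also the highest for Cd68, at 59.8 FPKM. At an unadjusted p under 0.05 edgeR had 2 leukocyte markers, both lower in all null libraries, where 6.07% of all genes were lower at that level. Cd79a had 0.77 and 0.59 FPKM in the wt and 0.18, 0.03 and 0.03 FPKM in the null libraries, and Coro1a had 1.5 and 1.28 FPKM in the wt and 0.23, 0.63 and 0.11 FPKM in the null libraries. Laptm5 was higher in all null libraries, with 0.07 and 0.01 FPKM in the wt and 0.26, 0.13 and 0.18 FPKM in the null libraries. All 6 endothelial markers stayed under 1 FPKM, with Kdr at most at 0.62 FPKM. Of 5 megakaryocyte markers, 3 were listed, Gp9 was listed in no library and the most abundant, Gp1bb, reached 0.85 FPKM in null replicate 3, beside 0.41 to 4.52 FPKM of Itga2b. Among 8 muscle and Schwann cell markers, Des reached the highest value, with a range of 0.09 to 4.24 FPKM. Myog was listed in no library and Sox10 did not exceed 0.01 FPKM. Of the 11 thyroid follicular markers, 7 stayed under 1 FPKM in every library, and their summed FPKM was 15.3 and 20.6 in the wt and 35.2, 68.5 and 4.84 in the null libraries.

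Ligands of integrins were examined next, in a list of 23 genes of which 19 were tested. At an adjusted p under 0.05 edgeR called none. At an unadjusted p under 0.05 it had 6 higher (12.4% of all genes were) and 0 lower (6.07% of all genes were). In CPM after TMM normalization, 6 ligands were higher in all null libraries (22.6% of all genes were) and 3, Fbln5, Mfge8 and Vcam1, were lower in all of them (17.3% of all genes were), and in FPKM each of them overlapped between the groups. DESeq2 called 5 of them higher and 0 lower, where it called 8.48% of all genes higher and 3.71% lower.
Tnc, the matrix protein tenascin-C, had 0.19 and 0.25 FPKM in the wt and 7.71, 3.50 and 11.5 FPKM in null replicates 1, 2 and 3 (log2 fold change 4.52, standard error 0.76, adjusted p = 0.180, edgeR). Thbs1, thrombospondin 1, had 2.82 and 5.13 FPKM in the wt and 39.1, 109 and 110 FPKM in the null libraries (log2 fold change 3.79, standard error 0.69, adjusted p = 0.180, edgeR). Npnt, nephronectin of the basement membrane, had 2.87 and 2.36 FPKM in the wt and 35.4, 19.3 and 14.9 FPKM in the null libraries (log2 fold change 2.59, standard error 0.60, adjusted p = 0.181, edgeR).
All 3 ligands had every null library above both wt libraries. Fn1, fibronectin, the ligand of the Itga5 and Itgb1 pair, did too, with 123 and 87.7 FPKM in the wt and 234, 387 and 463 FPKM in the null libraries (log2 fold change 1.19, standard error 0.43, adjusted p = 0.231, edgeR). Spp1, the RGD protein osteopontin, ran from 22.1 FPKM in wt replicate 2 to 5234 FPKM in null replicate 2.

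Among 33 adaptors and kinases of focal adhesions, all tested, edgeR called 0 at an adjusted p under 0.05. At an unadjusted p under 0.05 it had 5 higher (12.4% of all genes were) and 1 lower (6.07% of all genes were), and DESeq2 called 3 higher (Ptk2b, Lims1 and Tns4) and 0 lower, where it called 8.48% and 3.71% of all genes. Ptk2b, the kinase Pyk2, had 0.32 and 0.55 FPKM in the wt and 23.7, 7.60 and 3.31 FPKM in the null libraries (log2 fold change 4.19, standard error 1.09, adjusted p = 0.191, edgeR). Lims1, the adaptor PINCH, had 2.16 and 1.78 FPKM in the wt and 6.04, 13.3 and 21.8 FPKM in the null libraries (log2 fold change 2.19, standard error 0.64, adjusted p = 0.194, edgeR). Ptk2, focal adhesion kinase, had 6.70 and 4.33 FPKM in the wt and 23.9, 13.8 and 26.8 FPKM in the null libraries (log2 fold change 1.41, standard error 0.51, adjusted p = 0.231, edgeR).
In CPM after TMM normalization, 5 of the 33 adaptors and kinases were higher in all null libraries (22.6% of all genes were) and 2 were lower in all of them (17.3% of all genes were). Ptk2b, Lims1 and Ptk2, which were picked for the lowest p of the list, were higher in all null libraries. Tns4 was not, with 0.34 and 0.20 FPKM in the wt and 74.1, 0.16 and 8.02 FPKM in null replicates 1, 2 and 3. Ilk, the kinase-like partner of Lims1, was lower in all of them, with 398 and 369 FPKM in the wt and 245, 330 and 138 FPKM in the null libraries (log2 fold change -1.27, standard error 0.48, adjusted p = 0.238, edgeR). Tln1, talin, which activates integrins, had 23.9 and 20.5 FPKM in the wt and 53.2, 50.7 and 23.8 FPKM in the null libraries, with overlap.

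Of 19 other basement membrane genes, 16 were tested and edgeR called 0, with 1 higher and 0 lower at an unadjusted p under 0.05 (12.4% and 6.07% of all genes). It was Nid1, which DESeq2 called higher as it did 8.48% of all genes, the nidogen that links laminin to collagen IV, with 3.36 and 4.36 FPKM in the wt and 16.9, 33.6 and 43.6 FPKM in the null libraries (log2 fold change 2.40, standard error 0.56, adjusted p = 0.181, edgeR). Null replicate 3 was the highest for Nid1, unlike for most laminin chains. In CPM after TMM normalization, 2 genes of the list, Nid1 and Dag1, were higher in all null libraries, as were 22.6% of all genes. On the same scale Col18a1, Col4a2 and Col4a4, collagens of the basement membrane, were lower in all null libraries, as were 17.3% of all genes. Col18a1, the most abundant of the list in both wt libraries, had 146 and 124 FPKM there. It had 179, 103 and 16.3 FPKM in the null libraries, with overlap in FPKM. Dag1, dystroglycan, and Bcam, both laminin receptors, came next in p. Dag1 had 6.32 and 8.44 FPKM in the wt and 38.5, 21.5 and 16.1 FPKM in the null libraries, and Bcam reached 400 FPKM in null replicate 1 against 9.98 to 39.9 FPKM in the other libraries.
In the list of 6 hemidesmosome genes, 4 were tested and edgeR called 0, with Dst higher at an unadjusted p under 0.05 (12.4% of all genes were). DESeq2 called Dst higher (adjusted p = 0.00529), as it did 8.48% of all genes. Dst, dystonin, had 0.56 and 0.30 FPKM in the wt and 4.15, 2.74 and 2.11 FPKM in the null libraries. Plec, plectin, which binds Itgb4, had 8.48 and 6.27 FPKM in the wt and 34.5, 12.0 and 9.60 FPKM in the null libraries, highest in null replicate 1 as Itgb4 was. Col17a1, the transmembrane collagen of hemidesmosomes, did not exceed 0.05 FPKM.
Of 7 tetraspanins, which associate with integrins in the membrane, edgeR called 0, while Cd9 was higher and Cd63 and Tspan4 were lower at an unadjusted p under 0.05. Of all genes 12.4% were higher and 6.07% lower at that level. DESeq2 called Cd9 higher (adjusted p = 0.0431) and Tspan4 lower (adjusted p = 0.0345), as it did 8.48% and 3.71% of all genes. Cd9 had 64.2 and 77.8 FPKM in the wt and 394, 257 and 279 FPKM in the null libraries. Tspan4 had 201 and 157 FPKM in the wt and 91.0, 144 and 118 FPKM in the null libraries, and Cd63 had 847 and 919 FPKM in the wt and 426, 719 and 836 FPKM in the null libraries. Cd151, the tetraspanin of the laminin receptors, had 235 and 269 FPKM in the wt and 338, 262 and 97.4 FPKM in the null libraries, with overlap.

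**Figure D5:**
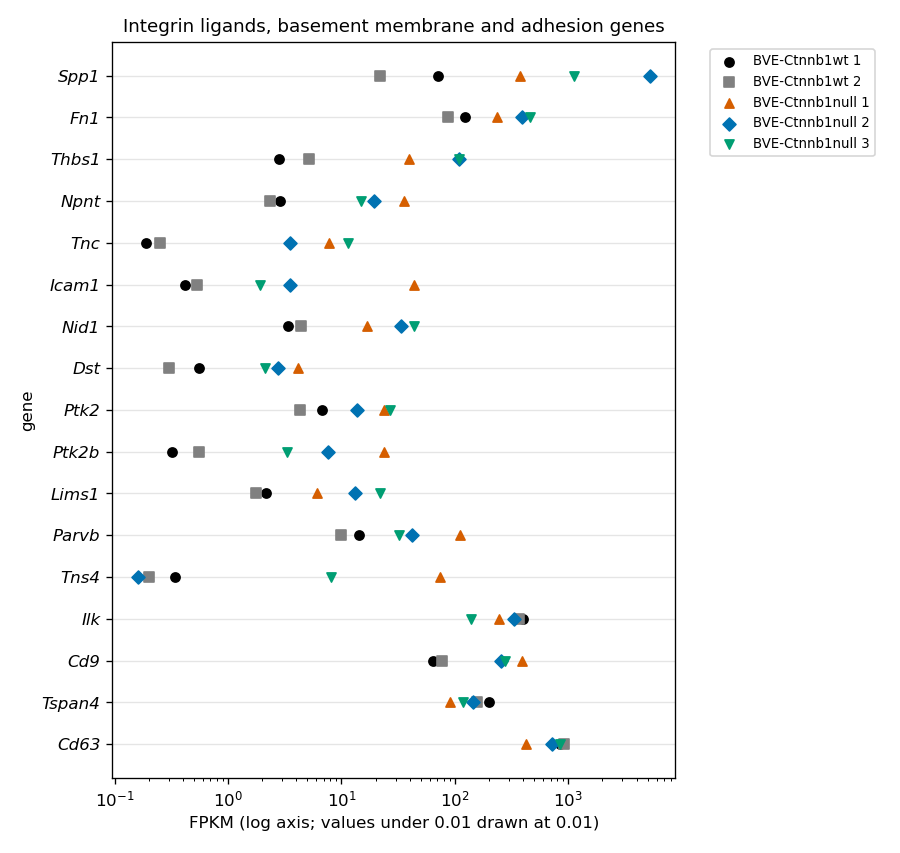
FPKM (log axis) of the 17 ligand, basement membrane, hemidesmosome, adhesion and tetraspanin genes with an unadjusted p under 0.05 in edgeR, 1 point per library; they are shown because of that p. Spp1 runs from 22.1 to 5234 FPKM, and Ilk, Tspan4 and Cd63 are the genes whose null points lie to the left of both wt points.

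Between the wt libraries, which differ in TSH by their labels, 14 of the 23 chains had a lower FPKM in replicate 2 (60.9%, against 63.0% of the 11375 genes at that level). In a test of the counts, which speaks for the libraries alone and not for TSH, 21 of 31 chains differed beyond counting noise (exact binomial test, adjusted p under 0.05), 67.7% against 56.8% of all genes. Of these, 8 were higher in replicate 2 (18.5% of all genes were) and 13 were lower (38.2% of all genes were). Itgb5 was 1.59-fold higher in replicate 2, and Itga3, Itga6 and Itgb1 were at 0.601, 0.602 and 0.668 of their FPKM in replicate 1. Lamb3 and Lamc1 differed little between the wt libraries, at 0.955 and 0.947 of their FPKM in replicate 1. With 1 library per condition there is no replicate check.

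The files list 1 transcript for 31 of the 36 genes, so forms that differ in the tail of Itga3, Itga6 or Itga7 could not be told apart. Of Itgb4, the transcript NM_133663 held 84.7% and 76.9% of the FPKM in the wt and 92.1%, 73.6% and 94.0% in null replicates 1, 2 and 3, and NM_001005608 held the rest. For Itgb5, NM_001145884 held 100.0% in both wt libraries and at least 96.7% in the null libraries. Itgb6 was assigned to NM_001159564 in wt replicate 2 and to NM_021359 in the null libraries, at low counts (22 in wt replicate 2 and 370, 4 and 117 in the null libraries).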

How the data were processed

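RNA-seq of 5 libraries was analysed. Per the labels and the paper, libraries were made with a TruSeq kit; the aligner, counting program, genome build and annotation are not given in the sources used here. The authors deposited, per RefSeq transcript, an expected count (estimated, with fractions) and FPKM; transcripts under 0.01 FPKM are not listed and were set to 0. Both were summed per NCBI gene number, and counts were rounded. Of 17923 genes, 17866 matched a symbol in the RefSeq table of GRCm38.p6. edgeR 4.0.16 in R 4.3.3 (TMM, filterByExpr, glmQLFit, glmQLFTest) was fitted on all genes with Benjamini-Hochberg adjustment. Alternatives were DESeq2 1.42.0, other count filters, limma 3.58.1 with trend on log2(FPKM + 0.1) or log2(FPKM + 1) for genes with at least 0.5 FPKM in 2 libraries, each library left out, and the replicate number as a block. Python 3.11.15, numpy 2.4.6, pandas 2.3.3 and scipy 1.17.1 were used elsewhere. The members and lists were chosen with earlier results of these data known. Chains with a mean of at least 1 FPKM in either group are given with values, except that some genes are not reported here though counts and sums over lists hold them, then, of each pathway list, the 3 genes with the lowest p, Col17a1, Plec, Nid1, Fn1 and Tln1, and of each marker list the most abundant gene and those at 0; Spp1, Ilk, Cd151 and further list and marker genes named were chosen after their values were seen. The labels name a different line for each null library, whereas both wt libraries are of the line BVE. The wt spread therefore holds no difference between lines, and p-values rest on the spread between these libraries only. The paper speaks of 3 biological replicates, whereas the labels give 2 wt and 3 null libraries. The fits were tested on simulated data: with 200 of 13059 genes shifted by 2 (log2) at the median dispersion of 0.387, edgeR recovered 0.5% with 0 false calls and DESeq2 10.5% with 15 false calls. With a shift of 4 (log2), over 13051 genes, edgeR recovered 81% with 3 and DESeq2 93% with 41 false calls.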

Additional observations from a re-analysis of the deposited data

How the results depend on the processing

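Of the 36 chains, 0 were called at an adjusted p under 0.05 in any edgeR or limma fit, and DESeq2 called 3 higher; the cause was not tested. Among 22 chains with a mean of at least 1 FPKM in either group, and Ctnnb1, 15 of 23 kept their direction under every alternative that gave a value, among them Itga2, Itga6, Itgav, Itgb1, Itgb3 and Itgb5. With no filter on low counts the median log2 fold change of integrin chains was 1.57. It was 1.24 with limma on log2(FPKM + 0.1), where 0 chains were lower in all null libraries, and 1.11 on log2(FPKM + 1). DESeq2 gave Itga7 a log2 fold change of -0.01. With the replicate block, 2 chains were lower at an unadjusted p under 0.05, the medians were 1.02 for integrin and -0.22 for laminin chains, and the log2 fold change turned for Itga7 (-0.80), Lama3 (-0.31), Lama4 (-3.18) and Lamb3 (-0.22). Null replicate 3 is the only library with its number. It therefore adds nothing to the group difference in the block fit, which in this respect repeats the fit without null replicate 3. The labels give no sign that equal numbers mark shared cultures, so the block stands for a number only. Deviations from the group means correlated at -0.11 for both equal-numbered pairs. With 2 wt libraries, the deviation of one is the negative of the other, so these correlations cannot decide whether libraries shared a batch.
Leaving out 1 library at a time, the number of chains higher at an unadjusted p under 0.05 ran from 0 (without wt replicate 1) to 7, and was 2 without wt replicate 2; the number lower ran from 0 to 2. Chains with all null above all wt libraries numbered 8 to 11, where fewer libraries overlap less, and those with all null below 2 to 4. The integrin median ran from 1.08 to 1.49 and the laminin median from 0.36 to 0.96. Log2 fold changes that turned ran from -0.08 to 1.69 for Itga3, -1.14 to 0.57 for Itga7, -0.99 to 1.80 for Itgb2, -0.80 to 2.11 for Itgb4, -2.92 to 3.52 for Lama4, -0.42 to 2.53 for Lamb3 and -0.25 to 0.93 for Lamc1. With a single wt library left, its spread is taken from the null libraries. Depth limits the chains at few counts, such as Itga9, Itgal, Itgam, Itgax, Lama1 and Lama2, which were not tested.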

Other observations

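In the annotation table, 5 chains overlap another protein-coding gene (Itga1, Itga4, Itga7, Itgae and Itgb4), and whether the counting used strand is not given in the sources used here. Galk1, which overlaps Itgb4, had 332 and 307 FPKM in the wt and 165, 74.3 and 57.0 FPKM in null replicates 1, 2 and 3. Pelo, within Itga1, had 28.9 and 20.7 FPKM in the wt and 17.1 to 31.9 FPKM in the null libraries. The part of shared reads in the values of Itgb4 and Itga1 was not tested.
Mouse Braf had 0.26 and 0.15 FPKM in the wt and 0.45, 0.86 and 3.46 FPKM in null replicates 1, 2 and 3.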
